A study of Mus musculus with 5 samples.

Results

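The genes of amino acid and peptide carriers were examined in epithelium of intestinal tumours and of normal intestine. Members were all genes of the solute carrier families 1, 3, 6, 7, 15, 36, 38 and 43 for which the array annotation gave a probe set with a single symbol, apart from Slc6a4. They numbered 47 of the 12393 genes measured, and for each the probe set with the highest average signal on the 5 arrays was used. Tumour samples were 3 Affymetrix arrays of intestinal tumours (tumours 16, 18 and 2) from Apc1638N mice on a C57Bl6/J background. They were set against 2 arrays of normal intestinal epithelium (wild types 36 and 62) from wild-type C57Bl6/J mice. All animals were males of 8 months, and in both groups epithelial cells had been cut out of tissue sections under a microscope with a laser (laser capture microdissection). Apc1638N is a truncating germline mutation of Apc, whose product keeps Wnt signalling in check by promoting the breakdown of beta-catenin. The mutation is carried by the whole animal, so host cells around a tumour carry it too. The labels do not name the stretch of intestine and do not say whether samples came from separate animals, so that the p-values reflect spread among these samples, which may be technical.

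The small intestine takes up protein digestion products across the luminal (brush border) membrane of the enterocyte, as free amino acids and as short peptides, and releases amino acids into the blood across the basolateral membrane. Several carriers are pairs of a heavy chain (Slc3a1 or Slc3a2), which brings the complex to the membrane, and a light chain of the Slc7 family, which moves the amino acid. Dividing cells rely on another set of carriers, which import glutamine, leucine and other neutral amino acids for protein synthesis and for signalling through the growth kinase mTORC1. Several genes of that second set are known targets of ATF4, the transcription factor of the amino acid shortage response.

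Absorptive carriers were lower in tumours and several growth-linked carriers were higher. Among 8 measured absorptive members 7 fell, 0 rose and 1 did not pass. Of 10 growth-linked members 3 rose, 0 fell and 7 did not pass. The median log2 change (tumour minus wild type) was -1.86 for absorptive members and 0.36 for growth-linked members, beside 0.0040 for all 12393 genes. A change passed when its Benjamini-Hochberg adjusted p in limma, fitted on all genes, was below 0.05. Over all 47 members 10 fell (21.3%), against 10.5% of all genes, and 3 rose (6.38%), against 11.3% of all genes. With a difference of at least 2-fold asked for as well, 8 members fell, against 4.49% of all genes, and 1 rose, against 3.45%. The roles were assigned from general knowledge of these carriers with earlier results of these data known, so the counts describe the members and are not a test of them. Absorptive members not analysed here were Slc6a19, Slc36a1 and Slc43a2, and among growth-linked members Slc43a1 was not.

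**Figure D1:**
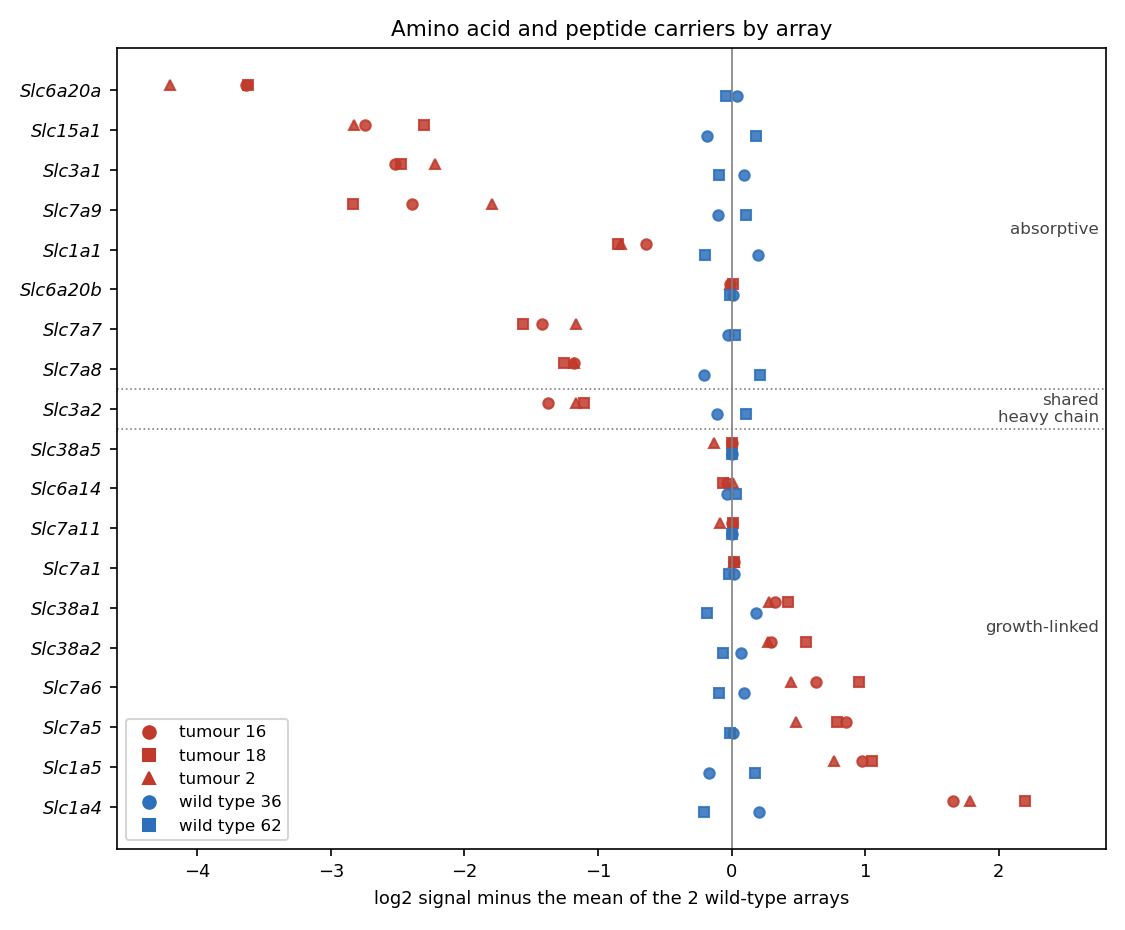
Log2 signal of each absorptive, shared and growth-linked member on each array, as the difference from the mean of the 2 wild-type arrays (x axis). Red symbols are the 3 tumours and blue symbols below them the 2 wild types. The tumours lie 0.64 or more below the wild-type mean for 7 absorptive members and for Slc3a2, and above both wild types for 6 growth-linked members.

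Stretches just before the transcription start of 5 members are shown, chosen for a called change or for a match to a motif searched. A part of such matches in the changes was not tested. The sequences are RefSeq's for build GRCm38.p6, run 5′ to 3′ on the gene's own strand and end at the base before the start, except that of Slc1a4, which runs 4 bases past it. Capitals mark matches to the motifs searched, except for a match of Slc7a7 that begins at its last base and runs on past the start. Slc3a1 (chr17:85028187-85028346, plus strand) fell in tumours and holds a match to the CDX-type and to the HNF4-type motif described below. Slc6a20a (chr9:123678833-123678992, minus strand) had the largest fall of all members. Slc7a7 (chr14:54417945-54418104, minus strand, the first of 5 listed starts) fell as well. Slc7a11 (chr3:50443614-50443773, minus strand) and Slc1a4 (chr11:20332710-20332873, minus strand) are growth-linked.
Slc3a1: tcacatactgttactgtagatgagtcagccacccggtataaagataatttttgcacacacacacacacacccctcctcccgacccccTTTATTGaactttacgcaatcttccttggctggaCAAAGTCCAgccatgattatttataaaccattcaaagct
Slc6a20a: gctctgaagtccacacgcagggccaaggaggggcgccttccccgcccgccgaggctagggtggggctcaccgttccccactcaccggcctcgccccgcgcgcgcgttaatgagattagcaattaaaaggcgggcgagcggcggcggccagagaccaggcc
Slc7a7: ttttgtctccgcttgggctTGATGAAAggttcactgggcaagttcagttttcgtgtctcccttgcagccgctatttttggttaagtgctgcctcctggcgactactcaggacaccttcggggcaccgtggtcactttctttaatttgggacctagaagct
Slc7a11: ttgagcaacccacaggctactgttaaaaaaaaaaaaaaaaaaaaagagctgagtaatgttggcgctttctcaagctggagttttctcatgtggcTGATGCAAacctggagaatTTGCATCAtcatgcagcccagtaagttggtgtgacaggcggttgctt
Slc1a4: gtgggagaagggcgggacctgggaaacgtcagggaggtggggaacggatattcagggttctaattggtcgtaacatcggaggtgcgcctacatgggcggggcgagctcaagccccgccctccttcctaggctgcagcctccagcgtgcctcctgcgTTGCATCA

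The motifs were searched on both strands in windows of 300 bases (250 before and 50 after the start), which were at hand for 31 of the 47 members with 50 listed starts. The core of the ATF4 response element, TGATGNAA, was found in 5 of 50 member windows (10%) and in 3.97% of all 32851 windows. Windows of 2 Slc7a7 starts overlap and hold the same match, so that counted by gene the core was found at 4 of 31 members (12.9%), Slc7a11, Slc1a4, Slc7a7 and Slc15a5, and at 4.51% of all 27025 genes. The Slc7a11 window had 2, beginning 66 and 47 bases before the start on opposite strands. The match of Slc1a4, on the opposite strand, began 4 bases before the start and so straddled it. An HNF4-type motif, CAAAGTCCA, was present in 0.475% of all windows and among members only at Slc3a1, 39 bases before the start. A CDX-type motif, TTTATNG, occurred in 10.9% of all windows and among members also only at Slc3a1, 73 bases before the start, with no overlap between the 2 matches. The E-box CACGTG was found in 3 member windows (Slc1a6, Slc6a3 and Slc38a5) and in 7.15% of all windows. A match describes these letters in this window and is not evidence of binding.

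At the luminal membrane the imino acid carrier Slc6a20a, which takes up proline with sodium and chloride, had the largest fall. Its log2 signal was 6.63, 6.64 and 6.06 in tumours 16, 18 and 2, against 10.30 and 10.22 in wild types 36 and 62. The groups were far apart, with tumour 2 lowest, and the change was -3.82 (SE 0.21, a 14.1-fold difference, adjusted p = 0.00497 in limma). Tumour 2 was close to the 25th percentiles of the arrays (6.04 to 6.07), so the fold is a rough value. The related gene Slc6a20b read 6.30, 6.33 and 6.30 in tumours, against 6.32 and 6.30 in wild types. Its groups overlapped and it did not pass (adjusted p = 0.961 in limma). This probe set was dim, at percentile 33 of the arrays on average, so a change of the transcript may not be seen. The peptide carrier Slc15a1, which brings in short peptides together with protons, read 5.78, 6.22 and 5.70 in tumours, against 8.34 and 8.71 in wild types. The log2 change was -2.62 (SE 0.21, adjusted p = 0.00678 in limma). Tumours 16 and 2 were below their arrays' 25th percentiles (6.04 to 6.07), so the size of this fall is uncertain.

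The 2 chains of the luminal carrier for cystine and dibasic amino acids, whose human genes are mutated in cystinuria, fell by similar amounts. The heavy chain Slc3a1 read 7.71, 7.76 and 8.01 in tumours, against 10.33 and 10.14 in wild types, a change of -2.41 (SE 0.12, adjusted p = 0.00491 in limma). The light chain Slc7a9 read 9.48, 9.04 and 10.08 in tumours, against 11.77 and 11.98 in wild types, a change of -2.34 (SE 0.34, adjusted p = 0.0186 in limma). In both chains tumour 2 was the tumour nearest to wild type. The glutamate and aspartate carrier Slc1a1 had the smallest called fall of the luminal members. Its signal was 7.80, 7.59 and 7.61 in tumours, against 8.64 and 8.24 in wild types, and the change was -0.77 (SE 0.15, adjusted p = 0.0319 in limma). The groups did not overlap. In its remaining probe sets the differences were -0.48 (adjusted p over probe sets = 0.0701) and -0.04 (0.546).

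On the basolateral side Slc7a7, the light chain that releases dibasic amino acids and whose human gene is mutated in lysinuric protein intolerance, read 8.87, 8.73 and 9.13 in tumours, against 10.26 and 10.32 in wild types. The change was -1.38 (SE 0.13, adjusted p = 0.00893 in limma), a 2.61-fold difference. Slc7a8, the light chain for neutral amino acids, read 6.60, 6.53 and 6.60 in tumours, against 7.58 and 7.99 in wild types. The tumours were close together and all lower, with a change of -1.21 (SE 0.14, adjusted p = 0.0117 in limma).

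Calls of single absorptive genes depended on which arrays were used. When tumour 16, tumour 18, tumour 2, wild type 36 or wild type 62 was left out, 3, 5, 6, 3 and 0 absorptive members passed, in that order. Without probe sets of tied values these counts were 6, 6, 7, 5 and 6. All 7 genes stayed lower in every one of these fits. Without wild type 62 no gene of 12393 passed, while 3880 had an unadjusted p below 0.05. In that fit the adjusted p was 0.0557 for Slc6a20a, 0.0526 for Slc3a1, 0.0657 for Slc15a1, 0.119 for Slc7a9, 0.0796 for Slc7a7 and 0.0526 for Slc7a8. Slc15a1, Slc7a9 and Slc7a7 also lost their call without wild type 36 (adjusted p = 0.0525, 0.103 and 0.0685 in limma). Without tumour 16 the same happened to Slc7a9, Slc7a7 and Slc7a8 (0.0855, 0.0541 and 0.0638), and without tumour 18 to Slc7a8 (0.0570). Slc1a1 passed in none of the 5 fits, with adjusted p between 0.0675 and 0.114.

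Absorptive enterocyte markers were lower in the same arrays. Of 11 measured markers 5 fell (45.5%, against 10.5% of all genes) and 0 rose, and all 11 were below wild type on average. Their summed linear signal was 8601 to 23069 in tumours, against 63734 to 74734 in wild types, with tumour 16 lowest. The called falls ran from that of Enpep, a brush border peptidase (change -5.41, SE 0.58), to that of Vil1, a structural protein of the microvilli (change -1.26, SE 0.14). Enpep read 5.12, 6.74 and 5.18 in tumours 16, 18 and 2. Tumours 16 and 2 were below their arrays' 25th percentiles, so the size of the Enpep fall is uncertain. Of 6 pan-epithelial markers 2 rose (Krt18 and Krt19, 33.3%, against 11.3% of all genes) and 0 fell. Their sums were 24182 to 31027 in tumours, against 18083 to 19778 in wild types. Of the 9 proximal intestine markers 4 fell (44.4%), and of the 5 distal markers 3 fell (60%), with 0 rises in each. The proximal sums were 2719 to 10085 in tumours, against 29106 to 31007 in wild types, and the distal sums 461 to 632 in tumours, against 2841 to 4637 in wild types. The part of cell makeup and gut region in the fall of the carriers was not tested. Fewer enterocytes and less RNA per cell cannot be told apart in such samples. No marker has a value of 0, because array signals do not reach it.

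The heavy chain shared by both sets, Slc3a2, was lower in tumours. It read 9.12, 9.39 and 9.33 in tumours, against 10.38 and 10.60 in wild types, a change of -1.21 (SE 0.12, adjusted p = 0.00909 in limma). Its light chains did not move as one. The basolateral chains Slc7a7 and Slc7a8 fell with it, the growth-linked chain Slc7a5 rose, and Slc7a6 and Slc7a11 did not pass. The change of Slc3a2 lay between -1.32 and -1.10 when single arrays were left out, and its call was lost without wild type 36 (adjusted p = 0.0540 in limma) or 62 (0.0712). Leukocytes express Slc3a2 and Slc7a7 as well, and several lymphoid markers were lower in the same arrays. Of 9 T cell markers 6 fell (66.7%, against 10.5% of all genes) and 0 rose. Their summed signals were 874 to 1056 in tumours, against 3007 to 4032 in wild types. Of 6 B and plasma cell markers 2 fell (33.3%, against 10.5% of all genes) and 0 rose. The falls were those of Jchain (change -2.99) and Igha (change -1.99). Sums of this list were 5338 to 7845 in tumours, against 15679 to 27655 in wild types. Macrophage markers had 1 rise (Cd14) and 0 falls among 8, and this share of rises, 12.5%, was near the 11.3% of all genes. Their sums were 1912 to 3102 in tumours, against 1664 to 2276 in wild types. The part of these leukocytes in the change of both carriers was not tested.

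**Figure D2:**
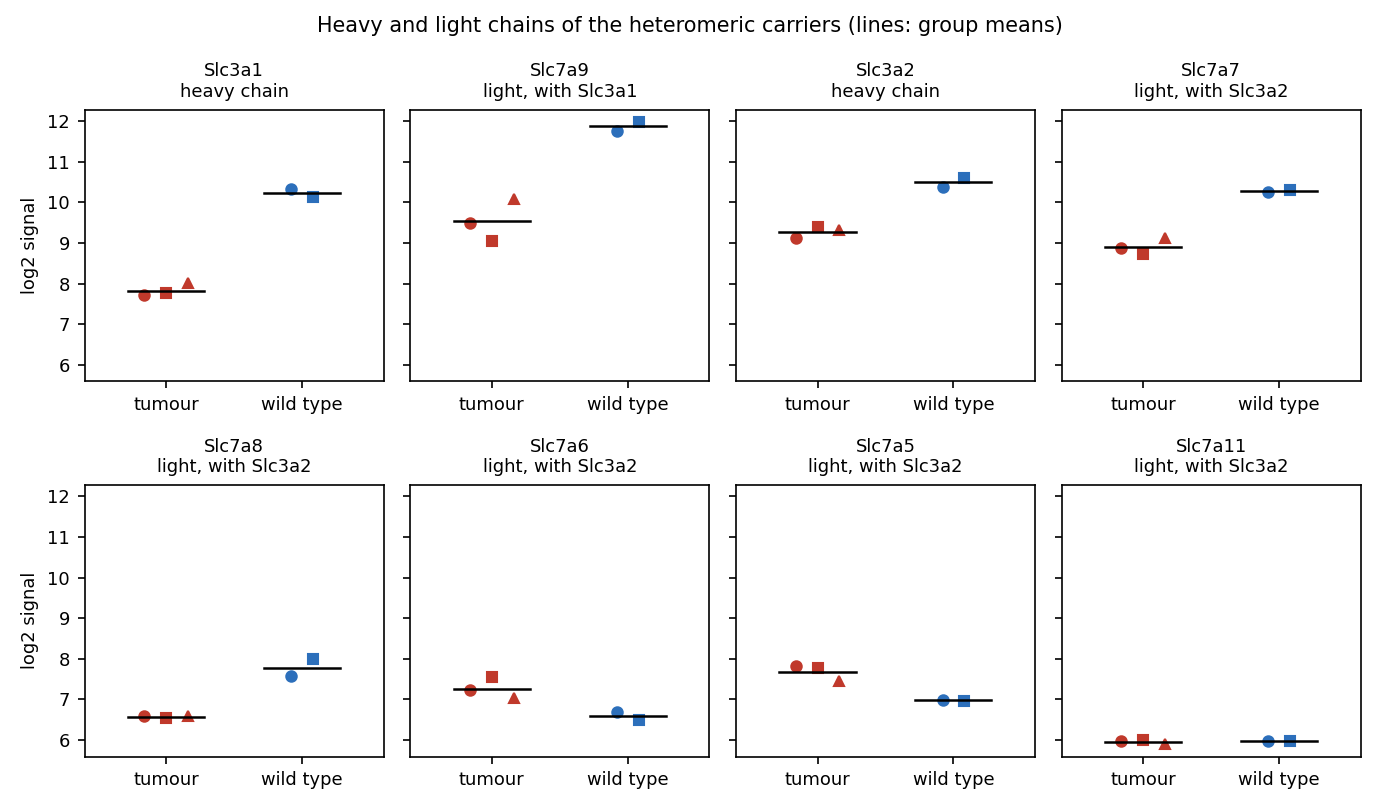
Log2 signal of heavy chains and light chains of the heteromeric carriers, with tumours on the left and wild types on the right of each panel. Symbols are single arrays and lines are group means. Tumours lie below wild types for Slc3a1, Slc7a9, Slc3a2, Slc7a7 and Slc7a8 and above them for Slc7a6 and Slc7a5, and the groups overlap for Slc7a11. Levels of different probe sets are not comparable.

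Among growth-linked carriers the neutral amino acid exchanger Slc1a4, which carries serine, alanine and cysteine, had the largest rise. It read 8.00, 8.54 and 8.13 in tumours, against 6.55 and 6.14 in wild types. The change was 1.88 (SE 0.22, a 3.68-fold difference, adjusted p = 0.0127 in limma). Differences in its further probe sets were much smaller, at 0.16 and 0.21 (limma adjusted p = 0.360 and 0.0335, over probe sets). The mean of all its probe sets changed by 0.75, and the choice among probe sets without shared targets gave 0.21. The size of the rise therefore rests on 1 probe set, chosen for its highest average signal over tumours and wild types together. In wild types the probe set with the difference of 0.21 was brighter, at 7.05 and 7.08. The choice thus leaned on the tumour values and may favour a large rise. Mean differences were positive in all 3 probe sets. In the one with 0.16 the groups overlapped, with tumour 2 (6.61) below wild type 36 (6.66). The glutamine carrier Slc1a5 read 8.45, 8.52 and 8.24 in tumours, against 7.30 and 7.64 in wild types, and rose by 0.93 (SE 0.15, adjusted p = 0.0214 in limma). Slc7a5, the light chain that imports leucine and other large neutral amino acids, read 7.83, 7.76 and 7.46 in tumours, against 6.98 and 6.96 in wild types. It rose by 0.71 (SE 0.13, adjusted p = 0.0293 in limma), with tumour 2 nearest to wild type.

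For 3 more growth-linked members every tumour was above both wild types, but the changes did not pass. Slc7a6, a light chain that exchanges dibasic for neutral amino acids, read 7.22, 7.55 and 7.03 in tumours, against 6.68 and 6.49 in wild types (difference 0.68, SE 0.18, adjusted p = 0.0645 in limma). It passed with quantile normalization (0.0481), with median centring (0.0495), without dim probe sets (0.0476) and without tied ones (0.0447). It did not pass with a trended and robust variance model (0.0540) or without shared-target probe sets (0.0723). Nor did it pass without tumour 16 (0.177), 18 (0.0902) or 2 (0.0592). The mean of its probe sets differed by 0.44 (0.0573), and its other probe set by 0.20 (adjusted p over probe sets = 0.0895 in limma). The sodium-coupled glutamine carrier Slc38a2 read 9.01, 9.27 and 8.99 in tumours, against 8.78 and 8.65 in wild types (difference 0.37, SE 0.11, adjusted p = 0.0876 in limma). Its relative Slc38a1 read 9.42, 9.52 and 9.38 in tumours, against 9.28 and 8.92 in wild types (difference 0.34, SE 0.13, adjusted p = 0.142 in limma). In all, groups did not overlap, with tumours higher, for 6 of 10 growth-linked members, and over all genes this held for 27% with tumours higher. With tumours lower it held for 7 of 8 absorptive members, against 23.7% of all genes.

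The remaining 4 growth-linked members did not pass, and their groups overlapped. The cystine and glutamate exchanger Slc7a11 read 5.98, 5.99 and 5.90 in tumours, against 5.98 and 5.98 in wild types. The cationic amino acid carrier Slc7a1 read 5.54 in all 3 tumours, against 5.54 and 5.51 in wild types. Slc6a14, a carrier of broad specificity, read 5.71, 5.68 and 5.75 in tumours, against 5.71 and 5.77 in wild types. These 3 probe sets lay below the 25th percentile on all 5 arrays, where a change of the transcript may not be seen. The glutamine carrier Slc38a5 read 6.41, 6.41 and 6.28 in tumours, against 6.41 and 6.41 in wild types. Its probe set was tied and dim, at percentile 35.5 of the arrays on average, so a change may not be seen here either. Adjusted p-values of the 4 genes lay between 0.621 and 0.732 in limma.

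Calls of growth-linked members also depended on the arrays used. Without tumours 16, 18 and 2 and wild types 36 and 62, in that order, 0, 1, 3, 0 and 0 of 10 members rose. Without tied probe sets these counts were 1, 2, 4, 2 and 1. Slc1a4 did not pass without tumour 16 (adjusted p = 0.0530 in limma), without wild type 36 (0.0637) or without wild type 62 (0.0867). Slc1a5 and Slc7a5 kept theirs only without tumour 2 (0.0371 and 0.0118), and in the other fits their adjusted p lay between 0.0731 and 0.150. Of 7 fibroblast markers 1 rose (Dcn) and 0 fell, with sums of 2089 to 9965 in tumours, against 987 to 1301 in wild types. Smooth muscle markers had 1 rise (Acta2, 20%, against 11.3% of all genes) and 0 falls among 5. Their sums were 1529 to 1752 in tumours, against 835 to 1040 in wild types. These sums mainly follow Acta2, the brightest of the 5 (change 1.22). Des, Myh11 and Cnn1 differed by -0.04, -0.01 and 0.02, and Tagln by 0.29. None of 4 endothelial markers passed in limma (1 had an unadjusted p below 0.05), and their sums overlapped (466 to 567 in tumours, against 455 to 521 in wild types). Of 4 Paneth cell markers 2 rose (50%, against 11.3% of all genes) and 0 fell. Mmp7 rose by 3.71 and Lyz1 by 1.13 on the log2 scale. The Paneth sums were 15288 to 20891 in tumours, against 5096 to 7429 in wild types. The part of these cell types in the rise of the growth-linked carriers was not tested.

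Of the 28 members with other roles 2 fell, 0 rose and 26 did not pass, while of all genes 10.5% fell and 11.3% rose. Only 12 of the 28 were kept when probe sets below the 40th percentile were left out. In the dim probe sets a change of the transcript may not be seen, which limits the comparison with all genes. The creatine carrier Slc6a8 read 10.31, 10.38 and 10.51 in tumours, against 11.62 and 12.19 in wild types, a change of -1.50 (SE 0.19, adjusted p = 0.0153 in limma). A second probe set fell as well, with a change of -1.65 (adjusted p over probe sets = 0.0389). The chosen probe set of Slc6a8 did not pass when tumour 16 (adjusted p = 0.0749 in limma) or 18 (0.0681) was left out. Without wild type 62 its change was smaller, at -1.22. Slc7a4, a relative of the cationic carriers with no settled substrate, read 7.58, 7.58 and 7.42 in tumours, against 7.87 and 7.83 in wild types, and fell by 0.32 (adjusted p = 0.0358 in limma). Its other probe sets differed by 0.11 and 0.12, so that the mean of its probe sets differed by -0.03 and did not pass. Its call was kept only without tumour 2, with adjusted p between 0.0901 and 0.154 in the other 4 fits.

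Among the 26 of these members that did not pass, the 4 with the widest differences were singled out after their values were seen. Slc38a4, a sodium-coupled neutral amino acid carrier known from liver, read 6.96, 8.16 and 8.35 in tumours, against 6.11 and 6.08 in wild types (difference 1.73, SE 0.47, adjusted p = 0.0733 in limma). Every tumour was higher, but tumour 16 much less so than the other tumours. Slc38a4 passed as higher without tumour 16 (adjusted p = 0.0290 in limma), with tied probe sets left out (0.0496) and with the mean of its probe sets (0.0405), and it did not pass without any other array (0.149 to 0.256). A second probe set read 5.99, 7.28 and 6.88 in tumours, against 4.64 and 4.41 in wild types, with an adjusted p of 0.0384 over probe sets in limma. Both wild-type values and that of tumour 16 were below the 25th percentile of their arrays, so the size of this difference is uncertain. The taurine carrier Slc6a6 read 8.20, 7.93 and 7.69 in tumours, against 8.22 and 8.82 in wild types (difference -0.58, adjusted p = 0.190 in limma). Tumour 16 reached almost to wild type 36, and the other probe sets of Slc6a6 differed by only -0.005 and -0.09. The glycine carrier Slc6a9 read 8.996, 8.81 and 9.30 in tumours, against 8.58 and 8.45 in wild types (difference 0.52, adjusted p = 0.0987 in limma). Its other probe set differed by 0.05. For the lysosomal carrier Slc15a3 the signal was 6.18, 6.66 and 6.08 in tumours, against 6.11 and 6.02 in wild types, so the groups overlapped.

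The other 22 members differed by less than 0.2, with differences from -0.16 to 0.15. Many of their probe sets were dim or tied, so a change of these transcripts may not be seen. They include the lysosomal carrier Slc15a4, the kidney-type peptide carrier Slc15a2, the glial glutamate carriers Slc1a2 and Slc1a3, the monoamine carriers Slc6a2 and Slc6a3 and the glycine carrier Slc6a5. Slc15a2 varied among tumours, at 6.56, 6.86 and 7.25, against 6.83 and 6.94 in wild types. Slc38a10, the brightest of these 22, differed by 0.15 in its chosen probe set, and a further one fell, with a change of -0.25 (adjusted p over probe sets = 0.0381). Of all 47 members 8 lay below the 25th percentile on all 5 arrays, and 9 had equal values on all arrays of a group.

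**Figure D3:**
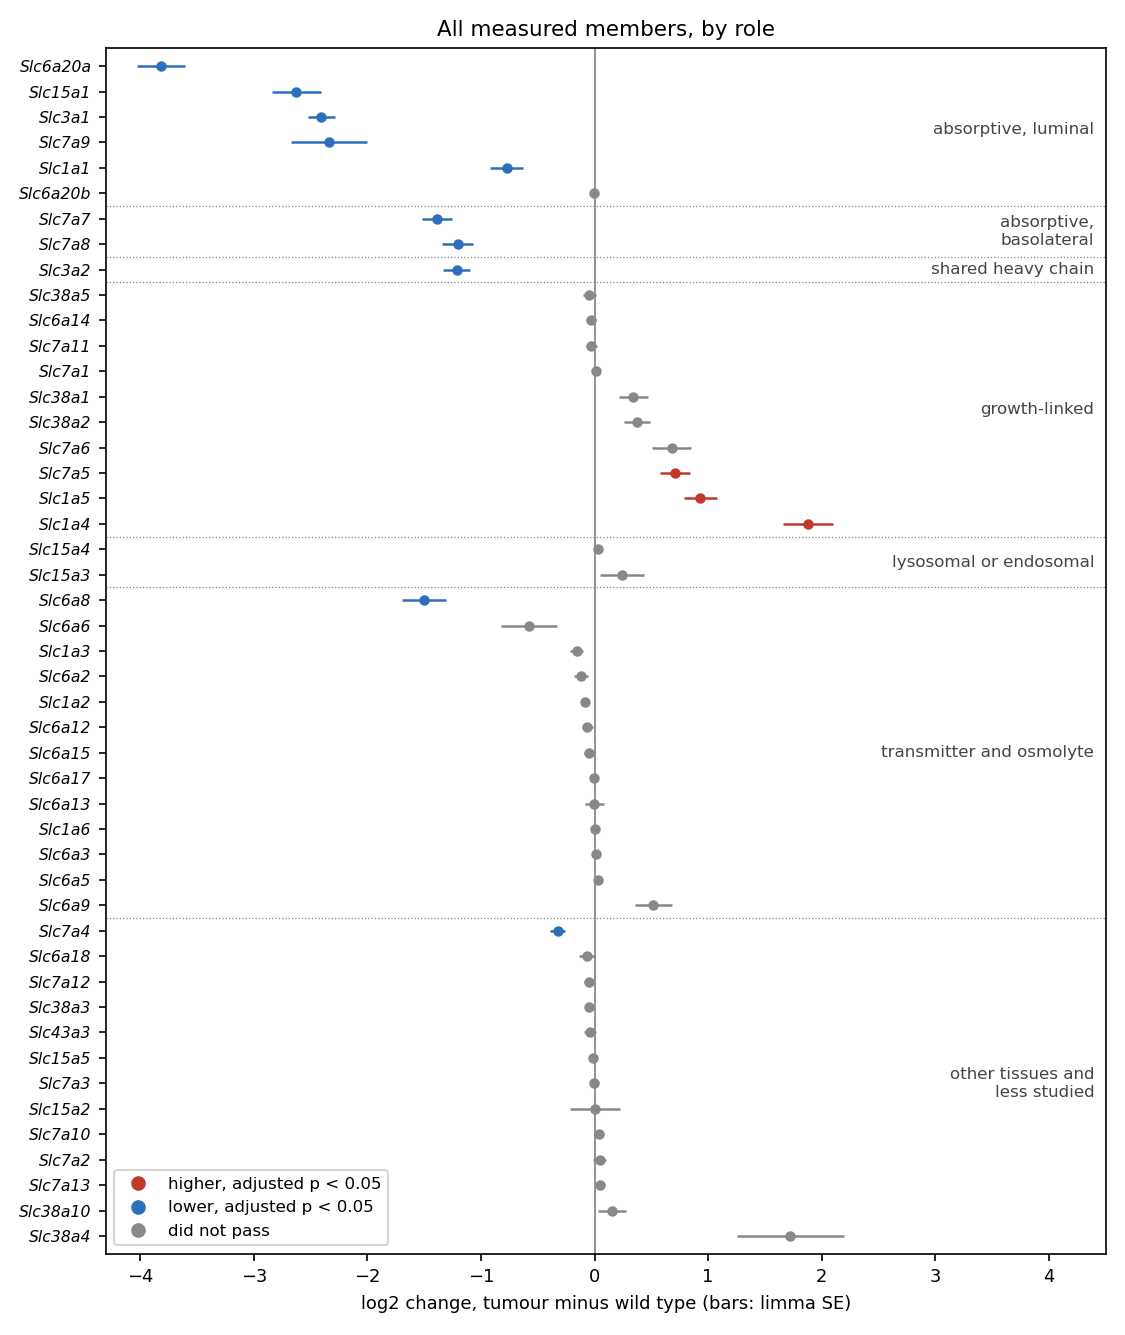
Log2 change (tumour minus wild type) of all 47 members with limma's SE, grouped by role. Red points passed as higher and blue points as lower, and grey points did not pass. Falls gather among absorptive members (7 of 8), the 3 rises are growth-linked (under some alternatives Slc38a4, of another role, passed as higher too), and most other members lie within 0.2 of no change.

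Genes that work with the carriers were listed by function. Of 7 measured partners of absorptive carriers 4 fell (57.1%, against 10.5% of all genes), 0 rose (against 11.3%) and 3 did not pass. Their median was -1.82. The brush border peptidase Anpep frees amino acids for uptake and partners luminal carriers. It read 6.04, 6.34 and 6.09 in tumours, against 9.65 and 9.15 in wild types (change -3.24, SE 0.19, adjusted p = 0.00498 in limma). Tumour 16 was below the 25th percentile of its array, so the size of this fall is uncertain. The dipeptidase Dpep1 fell by 3.13 (SE 0.21), the scaffold protein Pdzk1 by 2.31 (SE 0.17) and the scaffold Slc9a3r1 by 1.82 (SE 0.19). The 3 members that did not pass were Cltrn and the transcription factors Cdx2 and Hnf4a, named after their values were seen. Cltrn lay below the 25th percentile on all 5 arrays, where a change of the transcript may not be seen. Hnf4a read 11.85, 11.61 and 11.87 in tumours, against 11.82 and 11.73 in wild types. Cdx2 differed by -0.07. Its probe set gave an equal value, 9.58, in tumours 16 and 2 and in wild type 62, so it may not show a change of the transcript.

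The amino acid response list, which holds Atf4, known or likely targets of its product and 2 kinase genes that act upstream of it (Eif2ak3 and Eif2ak4), was mixed. There were 7 rises (28%, against 11.3% of all genes) and 2 falls (8%, against 10.5%) among 25 measured genes, 16 did not pass, and the list median was 0.12. Psat1, an enzyme of serine synthesis, read 8.69, 8.80 and 7.70 in tumours, against 5.93 and 5.80 in wild types (change 2.53, SE 0.38, adjusted p = 0.0202 in limma). Both wild-type values were below the 25th percentile of their arrays, so the size of this rise is uncertain. Shmt2, the mitochondrial enzyme that turns serine into glycine, rose by 2.28 (SE 0.26), and the stress-induced mTORC1 inhibitor gene Ddit4 rose by 2.07 (SE 0.23). Against the majority, Cth, which makes cysteine from cystathionine, fell by 2.53 (SE 0.17). Atf4 itself differed by 0.09 and the asparagine synthetase gene Asns by 1.16 (SE 0.29), with adjusted p = 0.499 and 0.0599 in limma. Both were named after their values were seen.

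Genes of mTORC1 and lysosomal amino acid sensing had 2 rises (11.8%) and 3 falls (17.6%) among 17, with a median of -0.10, and these shares were near the 11.3% and 10.5% of all genes. Sesn1, whose product restrains mTORC1, read 7.48, 7.39 and 7.76 in tumours, against 10.44 and 10.71 in wild types (change -3.03, SE 0.15, adjusted p = 0.00491 in limma). The GTPase subunit Rragc fell by 0.62 (SE 0.09), while the lysosomal scaffold genes Lamtor5 and Lamtor1 rose by 0.95 (SE 0.19) and 0.60 (SE 0.10). Of 9 genes of glutamine and glutamate use 3 fell (33.3%) and 1 rose (11.1%). The alanine aminotransferase gene Gpt fell by 2.40 (SE 0.09), the aspartate aminotransferase gene Got1 by 1.70 (SE 0.31) and the glutathione synthesis gene Gclm by 0.44 (SE 0.07). Glul, which makes glutamine from glutamate, rose by 1.46 (SE 0.21, adjusted p = 0.0193 in limma), with 9.40, 9.74 and 9.06 in tumours, against 7.95 and 7.94 in wild types.

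**Figure D4:**
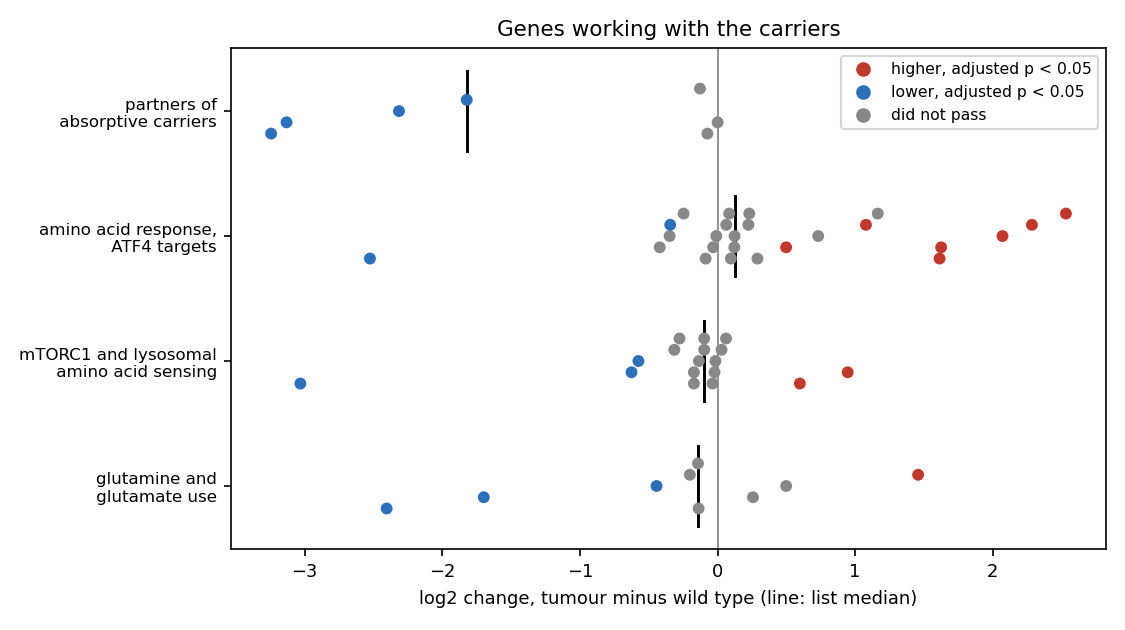
Log2 change (tumour minus wild type) of the genes in 4 lists of genes that work with the carriers. Each point is a gene, red for higher, blue for lower and grey for not passed, and black lines are list medians. The partners of absorptive carriers have a median of -1.82, and the other lists have medians between -0.14 and 0.12.

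The tumours differed among themselves in how far the members moved. The median difference of the 8 absorptive members from the wild-type mean was -1.91, -1.93 and -1.49 in tumours 16, 18 and 2, and that of the 10 growth-linked members was 0.31, 0.49 and 0.28. Tumour 18 thus had the widest gap between the sets and tumour 2 the narrowest. These medians describe 3 arrays and were not tested.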

How the data were processed

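Log2 signals of 22690 probe sets on 5 arrays were used as deposited by the authors. Per the submitters' processing notes the R package affy was used, and the summary method, background correction and normalization are not given in the sources used here. Values ran from 3.38 to 14.3 and array medians from 6.81 to 6.87. Per the labels' protocols, RNA was purified on columns, treated with DNase and labelled with biotin, following an Affymetrix protocol for small samples. After 64 control probe sets were set aside, 20380 of 22626 probe sets had 1 symbol in GEO's platform annotation, and their brightest probe sets represented 12393 genes. Groups came from the sample titles. The groups were compared by limma (version 3.58.1, R version 4.3.3; lmFit and eBayes, two-sided), with 3 residual degrees of freedom and Benjamini-Hochberg adjustment over all genes. A fold is 2 to the power of the size of the log2 change. The steps were tested on simulated data. The number of arrays limits the precision, and the smallest exact permutation p for a single value is 0.1. Members, roles and lists were chosen with earlier results of these data known. Named genes were all absorptive, shared and growth-linked members, every other called member and up to 4 called genes per list. Alternatives covered normalization, dim, tied and shared-target probe sets, the variance model, probe sets per gene, a 2-fold minimum and leaving out single arrays. Tied probe sets, with equal values on all arrays of a group, numbered 2594. Promoter sequences came from RefSeq for GRCm38.p6. The array table names no genome build.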

Additional observations from a re-analysis of the deposited data

How the results depend on the processing

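Counts of members that fell stayed between 8 and 10 (10 as reported) under normalization, filters on dim, tied or shared-target probe sets, the variance model, the mean of probe sets and a 2-fold minimum. Members that rose numbered 5 with tied probe sets left out (4 growth-linked members and Slc38a4) and 1 with the 2-fold minimum, where 1 growth-linked member and 985 of all genes passed. Leaving out 1 array gave 0 (without wild type 62) to 2380 calls over all genes, 0 to 9 members lower, 0 to 3 members higher, 0 to 6 absorptive members lower and 0 to 3 growth-linked members higher. With tied probe sets left out as well, the ranges were 1183 to 3069 (1507 without tumour 16 and 1544 without wild type 36), 7 to 10, 1 to 4, 5 to 7 and 1 to 4. With a wild type left out, the lone wild type is assumed to vary like the tumours.

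The absorptive median was -2.34 with dim probe sets left out and with shared-target probe sets left out, where fewer members were measured, and -1.995 to -1.69 with 1 array left out. The growth-linked median was 0.69 with dim and 0.53 with tied probe sets left out, again with fewer members, and 0.23 to 0.48 with 1 array left out (with tied probe sets left out too, 0.42 to 0.62, with 0.52 without tumour 16 and 0.61 without tumour 2).

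Single alternatives were computed for 27 members and not for the other 20. Among the 27, changes of sign were met in uncalled members with differences of 0.15 or less. With single arrays left out, Slc6a20b ran from -0.013 to 0.0072 (0.00072 without tumour 16 or 2, and the same with tied probe sets left out), Slc38a5 from -0.067 to 0.00014, Slc6a14 from -0.062 to 0.0034 and Slc7a11 from -0.044 to 0.0040. Slc15a2 ran from -0.18 to 0.17 (-0.051 without wild type 36, and the same with tied probe sets left out), and stood at -0.026 under quantile normalization, -0.030 under median centring and -0.066 for the mean of its probe sets. Slc38a10 stood at -0.024 for that mean and at -0.046 with shared-target probe sets left out. Slc7a1 stood at -0.016 under median centring. No paired analysis was possible because the groups share no replicate numbers.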
